A study of Homo sapiens with 14 samples.

Results

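The replication-dependent histone genes are the 73 entries whose symbols start with HIST1H, HIST2H, HIST3H or HIST4H, out of 26732 gene symbols that the A549 and H1792 tables have in common. By the class named in the symbol they comprised 6 linker histone H1 genes, 18 H2A, 20 H2B, 14 H3 and 15 H4 genes. Both cell lines are established human lung adenocarcinoma (LUAD) lines, and each stands for 1 line only. Cells received AMG900, an inhibitor of the Aurora kinases that drive mitosis, at 0.1 µM or DMSO alone for 48 h. RNA was sequenced from 4 DMSO and 4 AMG900 libraries of A549 and from 3 and 3 of H1792. No other treatment or allele is named for any group. Gene totals ranged from 4254644 to 18962883 counts in A549 and from 42760874 to 79902934 in H1792. Epithelial keratins were abundant in both lines, whereas the lung lineage markers NKX2-1, NAPSA, SFTPB and SFTPC summed to at most 1.47 CPM (counts scaled to a common library size) in any group mean. The other epithelial markers were lower. EPCAM means in DMSO and AMG900 were 0.3 and 0.338 CPM in A549 and 3.4 and 3.7 CPM in H1792. CDH1 means were 22.9 and 41.3 CPM in A549 but 0.681 and 0.903 CPM in H1792.

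Histones package DNA into nucleosomes, with a core made of H2A, H2B, H3 and H4 and a linker histone H1 outside it. The genes studied here sit in clusters and are transcribed mainly in S phase, when NPAT, a cyclin E-CDK2 substrate, activates them. Their messages usually lack introns and end in a short stem-loop in place of a poly(A) tail. The stem-loop binding protein SLBP recognises this hairpin and couples the message to processing, translation and decay. Some clustered genes can also give longer, polyadenylated transcripts in cells that have left the cycle. How the libraries selected RNA is not given in the sources used here, so the share of tailless histone messages in these counts is unknown. In bulk libraries, fewer cells with a transcript and less of it per cell cannot be told apart.

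The 3′ hairpin is shown because it defines the family and separates H4 from the other classes. A stem of 6 base pairs around a loop of 4 bases was found within the last 60 bases of an annotated transcript for 60 of the 70 members that the GENCODE annotation of GRCh37 placed. A search of canonical transcripts only found one in 0.89% of 20176 protein-coding transcripts, with the protein-coding histone genes among them. The loop is in capitals.
HIST1H1C stem-loop: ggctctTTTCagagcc
HIST1H2BK stem-loop: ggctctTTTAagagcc
HIST1H4C stem-loop: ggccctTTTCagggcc
All 13 H4 hairpins had the stem of the HIST1H4C hairpin, and the 47 hairpins of H1, H2A, H2B and H3 genes had the stem of the HIST1H1C hairpin. HIST2H2BE and HIST1H3E were among the 10 placed members without such a hairpin.

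Promoters are shown for HIST1H1C and HIST1H2BK, which held most histone reads and changed in both lines, and for HIST1H2BC, which shares its control region with HIST1H2AC. RefSeq windows of 250 bases before to 50 after the start (GRCh38.p14) matched 65 members. Capitals mark the TATA box core TATAAA, the CCAAT box, the octamer ATTTGCAT and the H1 box AAACACAA on either strand, and adjoining or overlapping matches run together.
HIST1H1C promoter, chr6:26056421-26056720, minus strand: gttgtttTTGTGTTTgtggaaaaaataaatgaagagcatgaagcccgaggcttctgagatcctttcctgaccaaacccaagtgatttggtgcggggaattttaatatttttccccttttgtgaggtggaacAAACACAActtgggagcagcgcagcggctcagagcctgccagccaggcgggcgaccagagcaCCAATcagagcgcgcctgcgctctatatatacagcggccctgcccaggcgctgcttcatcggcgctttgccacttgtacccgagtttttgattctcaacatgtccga
HIST1H2BK promoter, chr6:27146806-27147105, minus strand: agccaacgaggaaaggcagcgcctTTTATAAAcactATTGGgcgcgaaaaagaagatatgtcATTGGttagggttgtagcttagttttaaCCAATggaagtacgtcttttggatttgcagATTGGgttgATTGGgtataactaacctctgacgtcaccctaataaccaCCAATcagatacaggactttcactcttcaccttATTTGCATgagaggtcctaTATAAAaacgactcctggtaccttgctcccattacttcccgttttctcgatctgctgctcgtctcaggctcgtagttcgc
HIST1H2BC promoter, chr6:26123877-26124176, minus strand: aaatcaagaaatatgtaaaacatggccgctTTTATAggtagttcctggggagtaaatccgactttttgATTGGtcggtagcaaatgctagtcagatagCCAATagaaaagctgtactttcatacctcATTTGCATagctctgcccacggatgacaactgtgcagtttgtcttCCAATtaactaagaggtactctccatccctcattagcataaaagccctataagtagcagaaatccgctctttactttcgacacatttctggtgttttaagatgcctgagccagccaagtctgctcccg
The octamer occurred in 11 of 16 H2A and 14 of 18 H2B windows and in no H1, H3 or H4 window, against 1.77% of 35116 promoters. Where both windows of a head-to-head H2A and H2B pair were matched, they shared 253 to 293 of 300 bases. The same match can therefore count for both genes. The TTTATA of the HIST1H2BC window is the TATAAA of the HIST1H2AC window. The H1 box occurred in 4 of 6 H1 windows and in no window of another class, against 1.55% of all promoters. CCAAT was in every H1, H2A, H2B and H3 window but in 3 of 13 H4 windows (34.61% of all promoters), and TATAAA was in 44 of 65 members (11.53% of all promoters). A match is a string of letters and not a measured binding site.

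The question for each line was whether AMG900 changed these transcripts, and the first limit was the counts. A gene entered the edgeR quasi-likelihood test when enough libraries, 4 in A549 and 3 in H1792, reached the CPM that 10 counts give in a median-sized library, 0.729 CPM in A549 and 0.182 CPM in H1792. Of the 73 members, 19 passed in A549 (26%) and 52 in H1792 (71.2%), whereas 49.2% and 56.2% of all entries passed. Because a gene that is high in 1 treatment only can pass, counts over the tested members carry that selection. In A549 the tested members were 1 of 6 H1, 6 of 18 H2A, 8 of 20 H2B, 2 of 14 H3 and 2 of 15 H4 genes. In H1792 they were 5, 13, 16, 8 and 10 of these classes, 18 members were tested in both lines, and 20 in neither.

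Of the untested members, 6 were at 0 in all 14 libraries. They are the duplicated HIST2 genes HIST2H2AA3, HIST2H2AA4, HIST2H3A, HIST2H3C, HIST2H4A and HIST2H4B. Each shares between 51.1% and 100% of its 75-base windows with its twin, and reads that match both cannot be assigned to either, so these zeros are not evidence of absent transcripts. HIST1H4J and HIST1H4K share over 91% of windows, and HIST1H2AI and HIST1H2AJ over 61%, so their split is uncertain. HIST1H3E, an H3 gene, was listed at 0 in the 3 H1792 DMSO libraries, whereas the A549 libraries held 6 to 28 counts of it.

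By the mean over all libraries of a line, a single gene took the largest share of the histone reads. HIST1H1C, which encodes the linker histone H1.2, took 64% to 68.8% of all histone reads in each H1792 library. HIST1H2BK, an H2B gene, took 33.3% to 40.1% in each A549 library. It led in A549 DMSO, with a mean of 94.9 CPM against 68.1 CPM for HIST1H1C. In A549 AMG900 the HIST1H1C mean was slightly above it, at 137.3 against 133.6 CPM. Histone genes made up 0.0216% to 0.0378% of the gene counts in A549 and 0.112% to 0.192% in H1792.

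AMG900 libraries held more histone reads in both lines. Summed over the 73 genes, the A549 level was 249 ± 22.6 CPM in DMSO (SD, n = 4) and 364 ± 20 CPM in AMG900 (n = 4), a ratio of 1.46. In H1792 it was 1119 ± 66.7 CPM in DMSO (SD, n = 3) and 1927 ± 42.7 CPM in AMG900 (n = 3), a ratio of 1.72. In both lines each AMG900 library lay above each DMSO library. Without the most abundant member the ratios were 1.49 and 1.67. In A549 that member, by the mean over all libraries, was HIST1H2BK. The remaining sum, 154.4 and 230.4 CPM, still held HIST1H1C at 68.1 and 137.3 CPM.

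The ratio varied by class. The H1 sum was 2-fold higher with AMG900 in A549 and 1.74-fold higher in H1792, and HIST1H1C made up at least 94.1% of it in every library. The H2B sum was 1.34-fold and 1.71-fold higher and the H2A sum 1.25-fold and 1.23-fold higher. Without the top member of each class, the A549 ratios were 0.742 for H1 (0.984 and 0.73 CPM), 1.16 for H2B and 1.1 for H2A. The H1792 ratios were then 1.5, 1.67 and 1.13. The H3 sums, 6.38 ± 1.18 against 5.73 ± 0.856 CPM in A549 and 12 ± 2.14 against 13.7 ± 1.15 CPM in H1792, overlapped between treatments. The H4 sum was 0.521-fold in A549 and 5.37-fold in H1792, and without its top member HIST1H4C these ratios were 1.42 and 1.21. These sums are descriptions and were not tested.

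**Figure D1:**
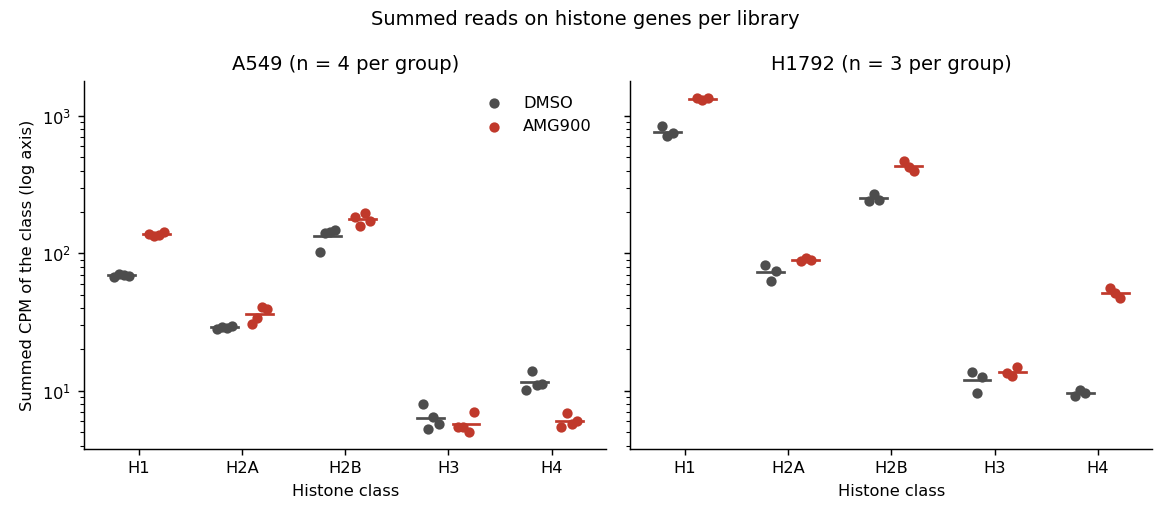
Summed CPM (log axis) of the genes of each histone class, with 1 point per library, grey for DMSO and red for AMG900, and a bar at the group mean. H4 is the class whose groups separate in opposite directions, from 11.6 to 6.03 CPM in A549 and from 9.64 to 51.8 CPM in H1792.

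In A549, the share of tested histone genes called higher with AMG900 at an FDR of 0.01 was near that of all genes. HIST1H1C, HIST1H2AC and HIST1H2BK were higher and HIST1H4C was lower, and 15 of the 19 tested members were not called. That is 3 of 19 higher and 1 of 19 lower, beside 17.3% of the 13174 genes tested called higher and 17.8% called lower. The median log2 fold change of the 19 was 0, and that of all genes was -0.01. CPM did not overlap between treatments for 5 members with AMG900 above and 1 with AMG900 below, beside 21.9% and 22% of all genes tested. After GC correction, and after GC and length, 1 member was higher (HIST1H1C) and 2 were lower (HIST1H2BL added), with medians of -0.26 and -0.41. Without AMG900 replicate 3, 1 member was higher.

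In H1792, 15 of the 52 tested members were higher, beside 16.7% of the 15017 genes tested. They were 9 H2B, 2 H2A, 2 H1 and 2 H4 genes, and no H3 gene. No member was called lower, beside 19.2% of all genes, by edgeR or by DESeq2, and 1 was lower at an unadjusted p under 0.05. The median log2 fold change was 0.42 for the members and 0.01 for all genes, and 41 members (78.8%) were above 0 against 50.8% of all genes. Correction for GC content lowered that median to 0.13 and the count of calls to 12, and adding transcript length gave 0.15 and 10. With the CPM minimum of the A549 filter, 36 members were tested in H1792 and the same 15 were higher. CPM did not overlap for 19 members with AMG900 above and 1 with AMG900 below, beside 30.1% and 29.6% of all genes tested.

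**Figure D2:**
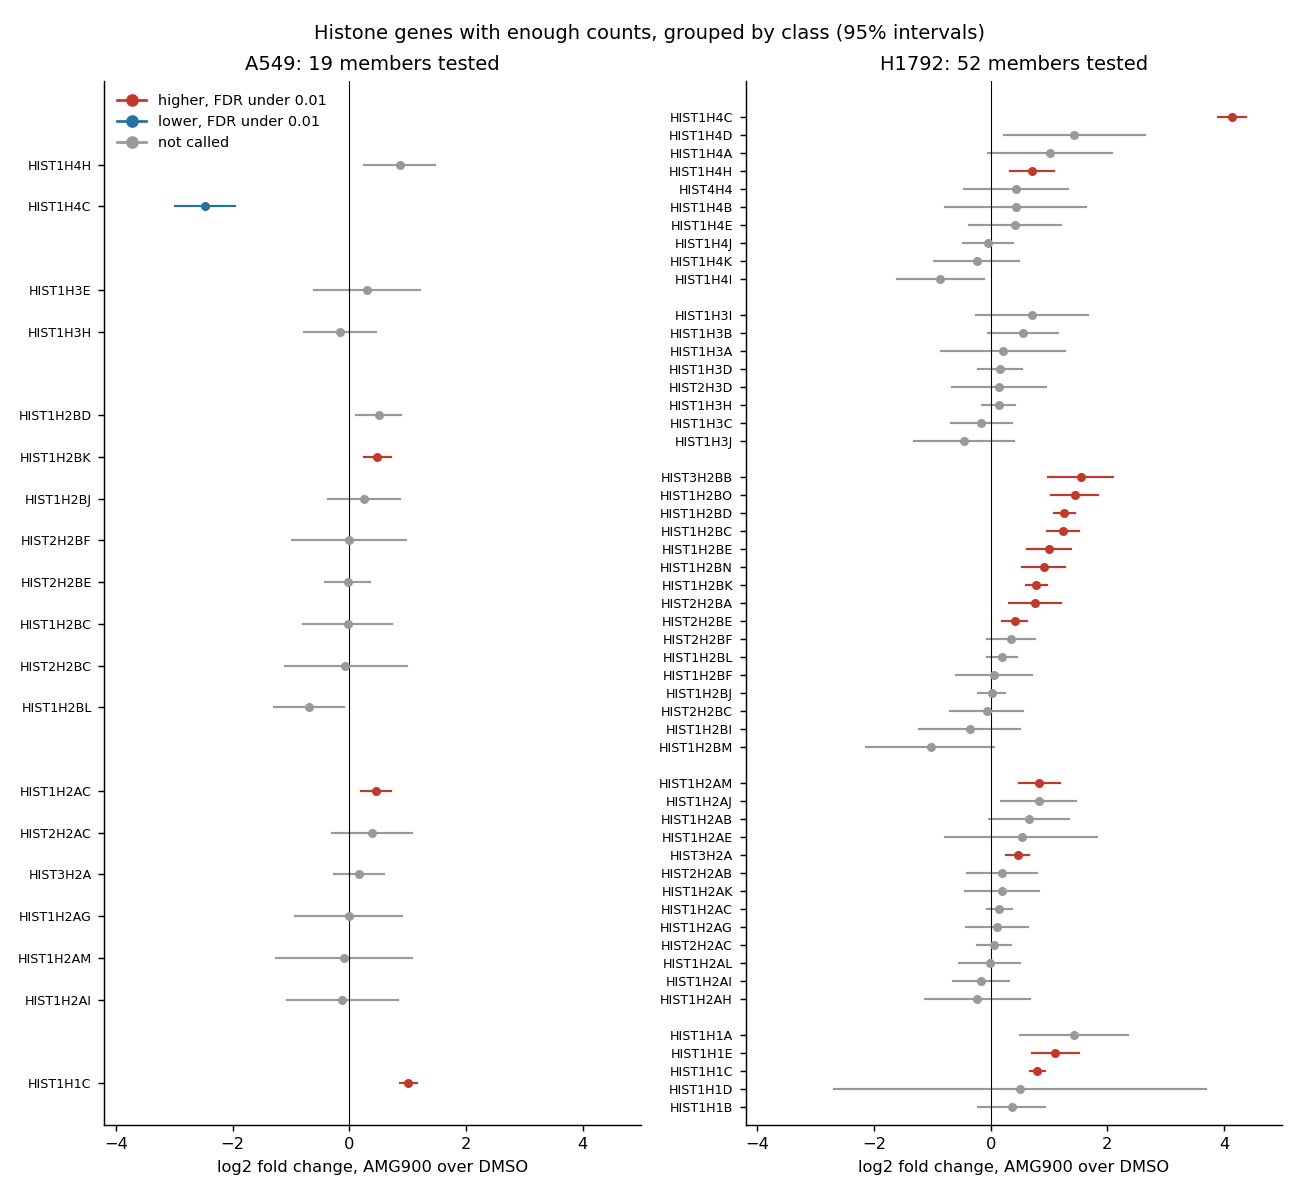
Log2 fold change, AMG900 over DMSO, of each tested histone gene with its 95% interval, ordered within class for A549 (19 genes) and H1792 (52 genes). Red points are higher and blue points lower at an FDR of 0.01. HIST1H4C lies at -2.48 in A549 and at 4.13 in H1792, and the H2B block of H1792 holds 9 red points.

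HIST1H1C was the linker histone gene with most reads (chr6:26055968-26056698, minus strand, GRCh37, a single exon). In A549 its level was 66.7, 69.2, 69.3 and 67.2 CPM in DMSO and 137, 134, 136 and 143 CPM in AMG900. The H1792 libraries held 799, 686 and 743 CPM in DMSO and 1301, 1274 and 1312 CPM in AMG900. The treatments did not overlap in either line. The log2 fold change was 1.01 (SE 0.07, adjusted p = 1.18e-08, edgeR) in A549 and 0.80 (SE 0.06, adjusted p = 3.02e-06) in H1792. The difference between the lines, -0.28 (SE 0.09), was not called (adjusted p = 0.023, edgeR interaction test).

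The other H1 genes had few reads in A549. HIST1H1E, which encodes H1.4, was at 0.704, 1.09, 0.373 and 0.474 CPM in A549 DMSO and at 0.661, 0.21, 0.647 and 0.646 CPM in A549 AMG900, too low to test there. In H1792 it rose from 2.51, 1.52 and 2.42 CPM to 4.46, 4.65 and 4.81 CPM, a log2 fold change of 1.11 (SE 0.18, adjusted p = 4.74e-04, edgeR). HIST1H1B, which encodes H1.5, was at 0.779, 0.595 and 0.775 CPM in H1792 DMSO and at 1.05, 0.918 and 0.778 CPM in AMG900. Its groups overlapped at 0.778 and 0.779 CPM, and its log2 fold change of 0.36 (SE 0.26) was not called (adjusted p = 0.271, edgeR). In A549 HIST1H1B was at 0 in 5 of 8 libraries and at most 0.364 CPM in the others.

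HIST1H1D, which encodes H1.3, differed between libraries of 1 group. The H1792 DMSO libraries held 3069, 1412 and 21 counts of it (46.9, 29 and 0.479 CPM), and the AMG900 libraries held 2803, 1723 and 2278 counts (36, 34.4 and 39.4 CPM). DMSO replicate 3 thus stood apart from the other 5 libraries for this gene. The log2 fold change was 0.51 (SE 1.17, adjusted p = 0.755, edgeR), and without that library it was -0.06 (adjusted p = 0.804). In A549 the gene gave 0 to 5 counts per library.

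HIST1H2BK, the leading H2B gene (chr6:27114140-27114634, minus strand, 1 exon), rose in both lines. In A549 its level was 71.8, 100.4, 104 and 104 CPM in DMSO and 142, 119, 146 and 127 CPM in AMG900. The H1792 libraries held 181, 212 and 184 CPM in DMSO and 370.2, 318 and 303 CPM in AMG900. The treatments did not overlap in either line, and A549 DMSO replicate 1 was the lowest library of its group. The log2 fold change was 0.48 (SE 0.11, adjusted p = 0.0019, edgeR) in A549 and 0.78 (SE 0.08, adjusted p = 2.71e-05) in H1792. The A549 call was lost without AMG900 replicate 3 (log2 fold change 0.44, adjusted p = 0.0102) and after GC correction (0.17, adjusted p = 0.212), and the H1792 call after correction for GC and length (0.49, adjusted p = 0.0497, all by edgeR).

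HIST1H2BD, another H2B gene, rose in H1792 from 13.8, 15.9 and 14.6 CPM to 36.7, 36.7 and 32.7 CPM. The log2 fold change was 1.26 (SE 0.08, adjusted p = 1.28e-06, edgeR). In A549 it was at 9.86, 18.9, 16.7 and 18.5 CPM in DMSO and at 23.6, 19.1, 29.9 and 20.6 CPM in AMG900. These groups did not overlap, but the log2 fold change of 0.50 (SE 0.18) was not called (adjusted p = 0.0315, edgeR).

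HIST2H2BE has a single annotated transcript of 2224 bases with no hairpin at its end. In H1792 it was at 9.67, 11.9 and 10.9 CPM in DMSO and at 14.6, 14.4 and 14.1 CPM in AMG900, a log2 fold change of 0.41 (SE 0.10, adjusted p = 0.00413, edgeR) that was lost when any 1 AMG900 library or DMSO replicate 3 was left out and under total count scaling (0.35). In A549 its DMSO libraries ran from 5.63 through 9.03 and 10.2 to 11.3 CPM and enclosed the AMG900 libraries, at 8.87, 9.54, 9.91 and 8.39 CPM. HIST1H2BJ was at 11.2, 9.01 and 10 CPM in H1792 DMSO and at 10.4, 10.5 and 9.92 CPM in AMG900, with a log2 fold change of 0.02 (95% interval from -0.21 to 0.25). In A549 it was at 1.88, 2.91, 3.14 and 3.56 CPM and at 2.36, 2.45, 4.31 and 4.91 CPM, and the groups overlapped.

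The interaction test called a further pair of H2B genes. HIST1H2BC was at 3.81, 4.7 and 4.9 CPM in H1792 DMSO and at 10.2, 11.5 and 9.75 CPM in AMG900, a log2 fold change of 1.24 (SE 0.13, adjusted p = 1.92e-05, edgeR). In A549 it was at 0.704, 2.36, 1.34 and 1.19 CPM in DMSO and at 1.51, 1.4, 1.35 and 1.49 CPM in AMG900, a log2 fold change of -0.03 (SE 0.36). The difference between the lines was 1.2 (SE 0.33, adjusted p = 0.00981, edgeR interaction test). This call was lost without any of 12 of the 14 libraries. Parts of the annotated HIST1H2BC exons lie opposite exons of HFE (14.9%) and of ENSG00000291336 (460 bases, 16%).

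HIST1H2BO rose in H1792 from 2.38, 1.7 and 2.14 CPM to 5.73, 6.79 and 4.53 CPM (log2 fold change 1.44, SE 0.18, adjusted p = 7.88e-05, edgeR). In A549 it was at 1.17, 0.546, 0.821 and 0.593 CPM in DMSO and at 0.0944, 0.771, 0.485 and 0.0646 CPM in AMG900, and it was not tested there. It entered the interaction test through its H1792 reads, so the fitted difference of 2.31 (SE 0.59, adjusted p = 0.00639, edgeR interaction test), whose call was lost without any of 8 of the 14 libraries, is not a comparison of responses measured in both lines. The remaining H2B genes called higher in H1792 were HIST1H2BE, HIST1H2BN, HIST2H2BA and HIST3H2BB, with log2 fold changes from 0.76 to 1.54. HIST2H2BA is annotated as a transcribed pseudogene, and its call was lost after GC correction, under total count scaling and without any 1 library.

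Of the H2A genes, 1 of 6 tested was higher in A549 (17.3% of all genes) and 2 of 13 in H1792 (16.7% of all genes), shares near those of all genes. HIST1H2AC was at 16, 15.1, 15.7 and 16.2 CPM in A549 DMSO and at 18.3, 21.9, 23.4 and 22.5 CPM in AMG900, with no overlap and a log2 fold change of 0.46 (SE 0.12, adjusted p = 0.00524, edgeR). That call was lost without any of 6 of the 8 libraries, under scaling by total counts (0.38) and after GC correction (0.14). The H1792 levels were 23.7, 18.4 and 22.5 CPM in DMSO and 24.4, 24.4 and 22.8 CPM in AMG900, and the groups overlapped.

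HIST3H2A, the H2A gene of the HIST3 cluster, rose in H1792 from 33.6, 26 and 30.9 CPM to 40.7, 42.8 and 41.6 CPM (log2 fold change 0.46, SE 0.09, adjusted p = 0.00119, edgeR). After GC correction it was 0.13 (adjusted p = 0.0863, edgeR). In A549 the gene was at 6.1, 8.37, 8.14 and 6.34 CPM and at 7.46, 6.03, 10.8 and 8.52 CPM, and the groups overlapped. HIST1H2AM rose in H1792 from 1.94, 1.54 and 1.85 CPM to 3.12, 3.41 and 2.97 CPM (log2 fold change 0.83, SE 0.16, adjusted p = 0.00141, edgeR), but 71% of its exon bases are also annotated as HIST1H3J. In A549 it was at 0.235, 1.36, 0.299 and 1.9 CPM and at 0.566, 0.561, 1.35 and 1.42 CPM, a wide spread in both groups.

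HIST2H2AC was not called in either line. Its H1792 levels were 14.2, 9.72 and 11.6 CPM in DMSO and 11.2, 13.1 and 12.9 CPM in AMG900. Its A549 levels were 3.29, 1.27, 1.94 and 1.36 CPM in DMSO and 2.27, 2.59, 2.21 and 2.39 CPM in AMG900. The groups overlapped in both lines, with log2 fold changes of 0.06 (SE 0.13) in H1792 and 0.39 (SE 0.33) in A549.

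No H3 gene was called, by the edgeR test, among 2 tested in A549 and 8 in H1792, and none had an unadjusted p under 0.05. HIST1H3H, with most reads of the class, was at 5.16, 3.82, 3.29 and 2.91 CPM in A549 DMSO and at 3.59, 3.44, 1.89 and 4.2 CPM in AMG900. In H1792 it was at 4.69, 4.04 and 4.67 CPM in DMSO and at 4.87, 4.41 and 5.46 CPM in AMG900. Its groups overlapped in both lines, with a 95% interval of the H1792 log2 fold change from -0.15 to 0.42.

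The next H3 genes were measured mainly in H1792. HIST1H3D was at 2.78, 2.07 and 3.1 CPM in DMSO and at 2.78, 2.91 and 3.2 CPM in AMG900, but 96.6% of its exon bases are also annotated as another gene (ENSG00000282988) on the same strand. HIST1H3B was at 2.46, 1.01 and 1.48 CPM in DMSO and at 2.22, 2.4 and 2.75 CPM in AMG900, and it was called higher without DMSO replicate 1 (log2 fold change 0.96). HIST1H3C was at 1.9, 1.27 and 1.18 CPM in DMSO and at 1.38, 1.44 and 1.12 CPM in AMG900. All 3 overlapped between treatments. In A549 the highest values of these genes were 0.896 CPM for HIST1H3B, 0.356 CPM for HIST1H3D and 0.296 CPM for HIST1H3C.

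HIST1H4C was the member with the largest change in each line, and it changed in opposite directions. It encodes H4 (chr6:26104161-26104565, plus strand, GRCh37, 1 exon) and lies inside the annotated span of HIST1H2BC, which is on the other strand, with no exon base shared. In A549 its level was 7.04, 10.9, 7.32 and 8.3 CPM in DMSO and 1.7, 1.68, 1.08 and 1.68 CPM in AMG900, from 30 to 140 counts per library down to 18 to 26. In H1792 it was 2.25, 2.54 and 2.62 CPM in DMSO and 47.3, 43.4 and 38.5 CPM in AMG900, from 115 to 147 counts up to 2176 to 3678. Neither line showed overlap, and the AMG900 libraries were the lowest of all in A549 and the highest of all in H1792.

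The log2 fold change of HIST1H4C was -2.48 (SE 0.24, adjusted p = 7.13e-07, edgeR) in A549 and 4.13 (SE 0.11, adjusted p = 2.53e-09) in H1792. The difference between the lines was 6.55 (SE 0.24, adjusted p = 4.91e-14, edgeR interaction test). With every alternative run, leaving out each library included, the gene stayed called in its own direction in both lines. Of the 40 members in the interaction test, HIST1H4C, HIST1H2BC and HIST1H2BO (the last not tested in A549 alone) were called with a higher log2 fold change in H1792, beside 5.48% of the 14769 genes tested, whose median difference was -0.10. None had a lower one, beside 9.34% of all genes, by edgeR or DESeq2, and 3 were lower at an unadjusted p under 0.05.

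**Figure D3:**
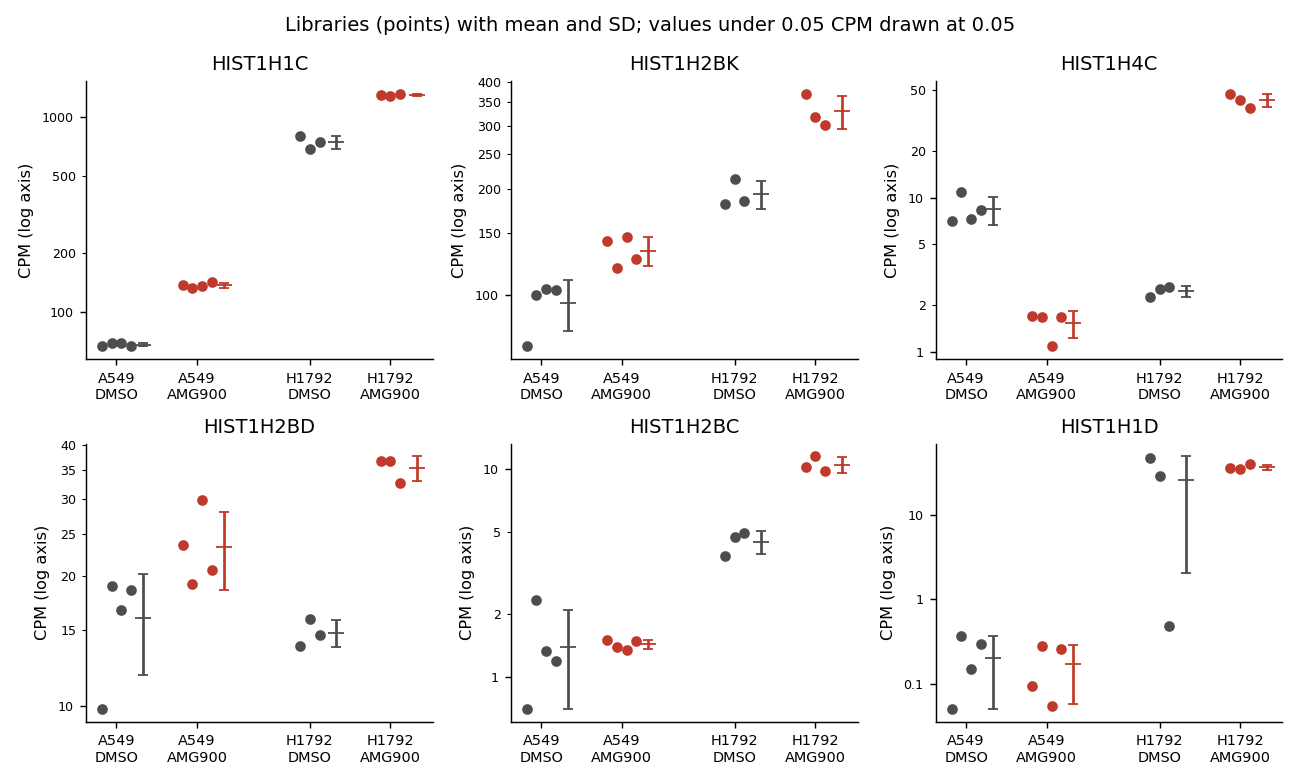
CPM (log axes) of 6 histone genes in each library, with the group mean and SD to the right of the points, grey for DMSO and red for AMG900, and values under 0.05 CPM drawn at 0.05. HIST1H1C and HIST1H2BK shift upward in both lines, HIST1H4C moves to 1.08 to 1.7 CPM in A549 and to 38.5 to 47.3 CPM in H1792, and 1 H1792 DMSO library of HIST1H1D sits at 0.479 CPM.

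HIST1H4H was the only other H4 gene called, and in H1792 alone. It was at 1.17, 1.36, 2.31 and 1.78 CPM in A549 DMSO and at 2.55, 3.93, 3.13 and 2.97 CPM in AMG900, without overlap, and its log2 fold change of 0.86 (SE 0.29) was not called (adjusted p = 0.0216, edgeR). In H1792 it rose from 1.74, 1.97 and 2.53 CPM to 3.52, 3.53 and 3.09 CPM (log2 fold change 0.71, SE 0.17, adjusted p = 0.00537, edgeR), a call lost without DMSO replicate 2 or any 1 AMG900 library (0.67 to 0.77), under total count scaling (0.64) and after GC correction (0.59), with the log2 fold change close to its first value each time. HIST1H4J, which shares 91.4% of its windows with HIST1H4K, was at 2.22, 2.87 and 1.98 CPM in H1792 DMSO and at 2.69, 2.1 and 2.02 CPM in AMG900. In A549 HIST1H4J did not exceed 0.323 CPM.

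HIST1H4E was at 0.657, 0.287 and 0.479 CPM in H1792 DMSO and at 0.63, 0.499 and 0.795 CPM in AMG900, with overlap. In A549 it ran from 0.235 to 0.546 CPM in DMSO and from 0.323 to 0.421 CPM in AMG900. The remaining H4 genes tested in H1792 had log2 fold changes from -0.86 to 1.43, and none was called.

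Most H2A and H2B members lie head to head, with their starts 170 to 289 bases apart in the 11 pairs found. Their promoter windows are therefore largely the same DNA: HIST1H2AC and HIST1H2BC share 255 of 300 bases. In H1792 both members were tested in 9 pairs, and the H2B member had the higher log2 fold change in 7. The HIST1H2BC change exceeded that of HIST1H2AC by 1.09 and that of HIST3H2BB exceeded HIST3H2A by 1.08, both on the log2 scale. HIST1H2AM and HIST1H2BO were both higher. The pair HIST1H2AJ and HIST1H2BM differed by -1.85 the other way, with neither member called.

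In A549 both members were tested in 4 pairs, and the H2B member had the higher value in 1. The difference within a pair was not tested, and where counting ignores strand, reads from facing transcripts that overlap cannot be separated. How strand was counted is not given in the sources used here.

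**Figure D4:**
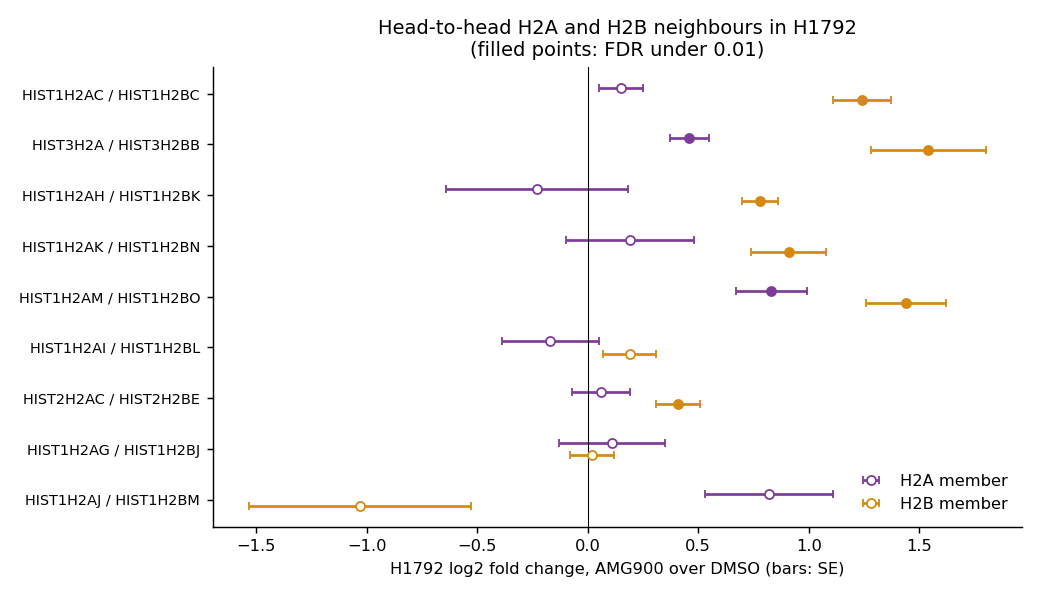
Log2 fold change in H1792 (x axis, AMG900 over DMSO, bars are SE) of the H2A member (purple) and the H2B member (orange) of 9 head-to-head pairs, with filled points called higher. The orange point lies to the right of the purple one in 7 pairs, and the median difference is 0.61.

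The H1792 calls were also counted by transcript structure, beside 16.7% of all genes called higher. Of 10 tested members with a transcript of 1000 bases or more, 7 were higher, against 8 of 41 with shorter ones. Of 13 with more than 1 annotated exon, 8 were higher, against 7 of 38 with 1 exon. Of protein-coding canonical transcripts, 76.9% had a poly(A) signal within the last 50 bases. Searched in any annotated transcript rather than the canonical one, such a signal was found for 18 members. Of the 13 of these tested in H1792, 8 were higher, against 7 of 38 without it. Of the 45 tested with a hairpin 13 were higher, and of 6 without it 2 were. The H1792 median log2 fold changes differed less for the poly(A) signal (0.46 with it, 0.39 without) than for length (0.58 and 0.35) or exons (0.71 and 0.28). In A549, 1 of 10 tested members with the signal and 2 of 9 without it were higher, beside 17.3% of all genes. By length the A549 counts were 1 of 7 long and 2 of 12 shorter members. The splits overlap one another, and no test was made of them.

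By the cluster named in the symbol, 11 of 42 tested HIST1 members on chromosome 6, 2 of 7 HIST2 members and both tested HIST3 members, the latter 2 groups on chromosome 1, were higher in H1792. These stand beside 15 of all 52 tested members and 16.7% of all genes. Both HIST2 calls, of HIST2H2BE and HIST2H2BA, were lost when single libraries were left out, as given above. HIST2H2BA is placed at chr1:120906101-120906358 (GRCh37), apart from the other HIST2 members, whose lowest start is 149754245. HIST4H4, alone on chromosome 12, had a log2 fold change of 0.44 (SE 0.40) there and was not called.

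The factors that make and use histone messages were counted from lists, to be read beside the 17.3% of all genes higher and 17.8% lower in A549 and the 16.7% and 19.2% in H1792. Among 7 transcription factors and kinases that act on histone genes, 2 of 6 tested were lower in A549 and 1 of 7 in H1792, with the others not called. NPAT was at 3.23 ± 2.18 and 1.53 ± 0.459 CPM in A549 (SD, n = 4) and at 3.36 ± 0.585 and 2.67 ± 0.293 CPM in H1792 (n = 3), and was not called in either line. Of 12 genes for 3′ end processing, 1 was higher and 4 lower in A549, and 2 were higher and 5 lower in H1792.

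SLBP, which binds the hairpin, fell in both lines. Its level went from 51 ± 10.6 to 26.4 ± 1.88 CPM in A549 (SD, n = 4; log2 fold change -0.93, SE 0.13, adjusted p = 2.6e-05, edgeR). The H1792 libraries passed from 46.4 ± 2.97 to 30.5 ± 1.78 CPM (SD, n = 3; log2 fold change -0.60, SE 0.07, adjusted p = 5.82e-05, edgeR). The difference between the lines was 0.24 and was not called (adjusted p = 0.287, edgeR interaction test). Of 5 genes for translation and decay of histone messages, 1 was called in A549, higher, and in H1792 the largest was not called at a log2 fold change of -0.54 (unadjusted p under 0.05 in 2 of the 5, edgeR).

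Chaperones carry newly made histones to DNA. Of 10 chaperone and histone-binding genes, 8 were lower in A549 and 5 in H1792, with medians of -0.97 and -0.28. ASF1B, which hands H3 and H4 to assembly factors, went from 52 ± 6.79 to 5.2 ± 1.52 CPM in A549 (log2 fold change -3.35, SE 0.18, adjusted p = 7.63e-10, edgeR) and from 53.9 ± 0.284 to 58.2 ± 2.13 CPM in H1792 (adjusted p = 0.124). CHAF1A, the large subunit of chromatin assembly factor 1, changed by -2.61 (SE 0.11) in A549 and by -0.35 (SE 0.08) in H1792 on the log2 scale, both called. The 2 lines differed for ASF1B by 3.4 (adjusted p = 2.49e-11) and for CHAF1A by 2.18 (adjusted p = 1.61e-10, edgeR interaction test).

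All 12 DNA replication genes were lower in A549, with a median log2 fold change of -2.46, and 8 of 12 were lower in H1792, with a median of -0.24. PCNA, the sliding clamp, changed by -0.61 (SE 0.09) and -0.64 (SE 0.08). The listed histone variant genes outside the clusters gave 4 lower of 11 tested in A549, and 2 higher and 3 lower of 11 in H1792. H2AFX changed by -1.48 (SE 0.12, called) in A549 and by -0.07 (SE 0.07) in H1792. H1F0, a linker histone of resting cells, was not called in A549 (-0.20, SE 0.06, adjusted p = 0.0177) and was higher in H1792 (0.75, SE 0.05, adjusted p = 1.57e-06, edgeR).

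**Figure D5:**
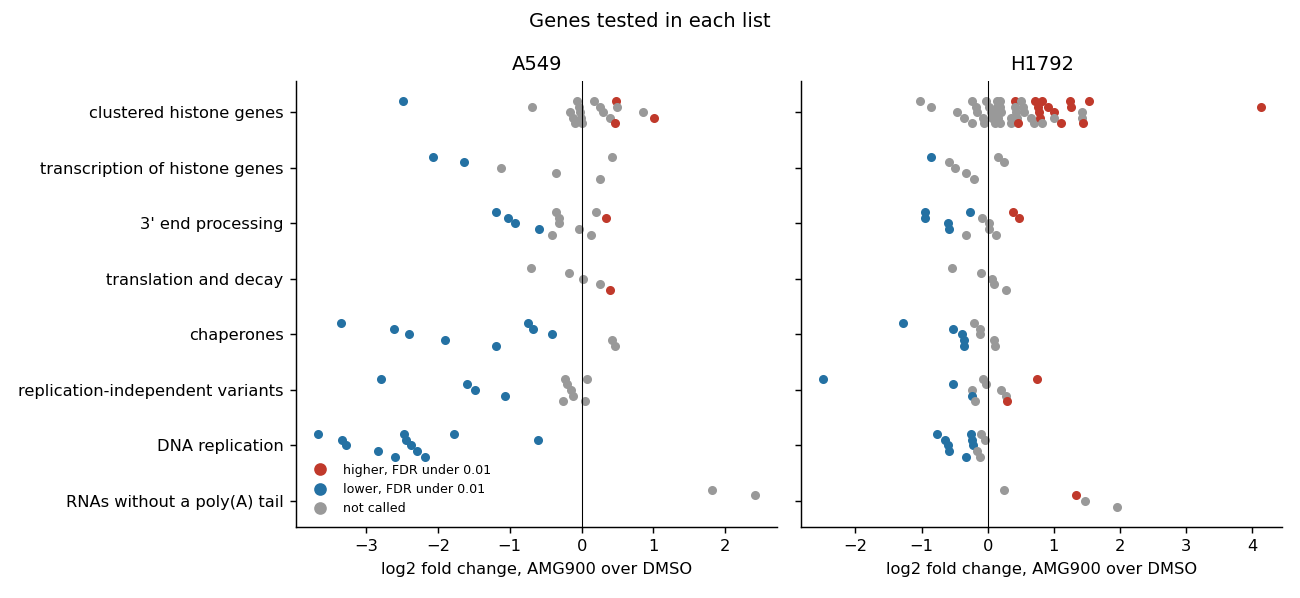
Log2 fold change, AMG900 over DMSO, of the tested genes of each list, with 1 point per gene, red for higher and blue for lower at an FDR of 0.01. In A549 the replication genes lie between -3.67 and -0.61 while the clustered histone genes centre on 0, and in H1792 the histone genes centre on 0.42.

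RNAs that lack a poly(A) tail were summed in the same way. Of 11 such RNAs, 7 are listed in the tables, and their summed mean level was 6.46 CPM in A549 DMSO against 30.9 CPM in AMG900 and 10.7 against 32.9 CPM in H1792. RMRP and RPPH1 made up most of it, and RMRP ranged from 0.939 to 7.06 CPM and from 5.05 to 47.5 CPM in the A549 groups. Neither was called in a line, SCARNA2 was called higher in H1792, and U11 and U12 (RNU11, RNU12) and VTRNA1-1 were at or near 0. The part of such RNAs, of the markers of other cell types and of GC content in the histone changes was not tested beyond the corrections given. Leukocyte markers summed to 73.4 and 158 CPM in A549 and to 104 and 179 CPM in H1792, nearly all of it CD68, which was called higher in both lines (log2 fold changes of 1.09 and 0.78), with PTPRC and CD3E at or near 0. Endothelial and fibroblast markers summed to at most 0.744 CPM in A549, and in H1792 to 4.53 and 7.9 CPM (both endothelial genes called higher) and to 40.6 and 35 CPM (DCN called lower).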

How the data were processed

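Per the labels and the study's methods, RNA of A549 and H1792 cells from separately treated dishes was sequenced, and p-values measure the spread between libraries. The labels describe 3 dishes per treatment, and 4 libraries per group were used for A549. Whether each A549 library came from a dish of its own is therefore not known. The authors aligned reads with STAR and deposited HTSeq raw counts per gene on hg19 (GRCh37), with versions, library selection and strand not given in the sources used here. For H1792, 28 entries were calendar dates (0.101% to 0.117% of counts) and were left out.

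Each line was fitted on its whole table, and an interaction on the symbols of both, with edgeR 4.0.16 in R 4.3.3 (TMM, filterByExpr, robust quasi-likelihood test, Benjamini-Hochberg FDR of 0.01). CPM used TMM library sizes. DESeq2 1.42.0 and other settings were alternatives, and the scripts were tested on simulated data. The GC and length corrections were splines with 5 degrees of freedom. Gene coordinates and transcripts are GENCODE on GRCh37, and promoters RefSeq on GRCh38.p14. The members and lists were chosen with earlier results of these data known. Given in every library were, per class, the 4 members with the highest mean log2 CPM over both lines, and every member called in both lines or by the interaction test. Members were otherwise counted. Other members with values of their own (such as HIST1H3E, HIST2H2BA and HIST4H4), RMRP, RPPH1, SCARNA2, CD68 and DCN were named after their values were seen.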

Additional observations from a re-analysis of the deposited data

Results flagged for a closer look

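In A549, 8 of 56 groups of 4 libraries had 1 library far from the others. The cut-off is passed by about 1 in 20 groups of independent, normally distributed values. That rate does not hold for groups mostly at 0 counts or for sums examined beside their own members, so the 8 cannot be set against it. DMSO replicate 1, the library with the fewest counts (4254644), was low for HIST1H2BK (71.8 CPM), for the summed H2B genes (101.6 CPM) and for all histone genes summed (215.5 CPM). The summed H2B and total both contain HIST1H2BK, so these are not separate events. DMSO replicate 2 was high for HIST1H1B (0.364 CPM) and DMSO replicate 4 for HIST1H3D (0.356 CPM), each resting on at most 6 counts. AMG900 replicate 2 stood apart for HIST1H1B (0.0701 CPM, 1 count) and for HIST1H1E (0.21 CPM), and AMG900 replicate 3 for HIST1H4C (1.08 CPM).

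The response to AMG900 differed between the lines by the edgeR interaction test for HIST1H4C (6.55), HIST1H2BO (2.31) and HIST1H2BC (1.2), each as the H1792 minus the A549 log2 fold change. HIST1H2BO had too few counts to be tested in A549 alone. HIST1H4C kept its call without each of the 14 libraries, whereas the other 2 did not.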

How the results depend on the processing

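At an FDR of 0.05, A549 had 5 histone genes higher (HIST1H2BD and HIST1H4H added), and the interaction had 5 higher and 2 lower (HIST1H1C and HIST1H4K). With GC correction, and with GC and length, A549 had 1 higher (HIST1H1C) and 2 lower (HIST1H2BL added). The median log2 fold change then was -0.26 and -0.41 in A549 and 0.13 and 0.15 in H1792, and the interaction had 5 higher with GC alone. Same-numbered replicates did not deviate together (r from -0.07 to 0.02), and with the replicate block the interaction kept 1 gene higher, HIST1H4C. The block also ended the calls of HIST1H2AC in A549 (0.46, adjusted p = 0.0138 by edgeR) and of HIST2H2BA in H1792. Leaving out 1 library gave 1 to 3 genes higher in A549 (1 without AMG900 replicate 3), 12 to 16 in H1792, and 1 to 4 higher and 0 to 1 lower in the interaction. The medians then ranged from 0.02 to 0.23 in A549 and from 0.29 to 0.41 in H1792. Of 477 other values of single genes, 456 kept their side of the threshold, 15 lost and 6 gained a call, and none reversed. The causes were not tested. The A549 filter of 0.729 CPM left 54 of the 73 members untested, and the A549 CPM minimum applied to H1792 was chosen after seeing the data.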
